A study of Mus musculus with 25 samples.

Results

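Colon-engrafted induced hepatocytes were compared with native colon crypts on 4 of the 25 mouse arrays of the series, 2 arrays of each, taken by their sample titles. All annotated probe sets were used. Induced hepatocytes (iHep) are epithelial cell lines derived from C57BL/6J embryonic fibroblasts by retroviral transduction of Foxa1, a pioneer transcription factor of endoderm, and Hnf4a, a nuclear receptor of liver and gut. For the engrafted iHep group these cells were placed in the colon of Rag2gammac-/- mice, immunodeficient hosts, after damage with DSS (dextran sulphate sodium, a chemical that injures the colonic epithelium). After 12 days the crypts were freed with EDTA, dissociated with 0.25% trypsin and sorted for GFP. The colon group held crypts of 8-week-old Rag2gammac-/- mice freed with EDTA and 0.25% trypsin, and its labels mention neither DSS nor a sort. Cell origin, transplantation, tissue damage and sorting therefore cannot be told apart in this comparison. The labels do not say which vector carried GFP, how old the recipients were, or whether the 2 arrays of a group came from separate mice or pools. The p-values thus reflect the spread among these arrays, which may be technical. Arrays of 3 cultured iHep lines, 2 adult livers and 2 fetal livers of embryonic day E14.5 served for context and for the estimate of the spread.

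The colonic crypt is renewed by Wnt-dependent stem cells at its base, which feed dividing progenitors and then absorptive colonocytes, mucus-secreting goblet cells and hormone-producing enteroendocrine cells. Cdx1 and Cdx2 are homeobox factors that hold intestinal identity, and Hnf4a and Foxa factors act in both liver and gut. Injured gut epithelium is known to divide more, to make antimicrobial lectins and to express genes of the fetal gut, while interferon-stimulated genes, which encode antiviral proteins, are normally kept at a basal level in the healthy colon.

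Levels below are log2 signals of RMA, the authors' normalization, in which a step of 1 is a doubling. Of 15262 genes tested, 1083 were higher in engrafted iHep (7.1% of the genes tested) and 1474 were lower (9.66%), 16.8% in all, at an adjusted p under 0.05 in limma. Of these, 319 higher and 411 lower genes differed at least 4-fold. The median log2 fold change over all genes tested was 0.01. The shares of 7.1% and 9.66% stand beside the counts of every list below. For 5153 genes (33.8%) the 95% interval of the log2 fold change lay inside plus or minus 1, that is, within a factor of 2. These intervals were not adjusted over the genes tested, and they rest on a spread shared by 11 arrays. They can include genes near background in both groups, since a gene could pass the filter on other arrays. The other 7552 genes were neither called nor bounded in this way. Leaving out colon replicate 1 or 2 cut the number called to 842 and 834, and 635 genes were called with every one of the 4 arrays left out in turn.

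**Figure D1:**
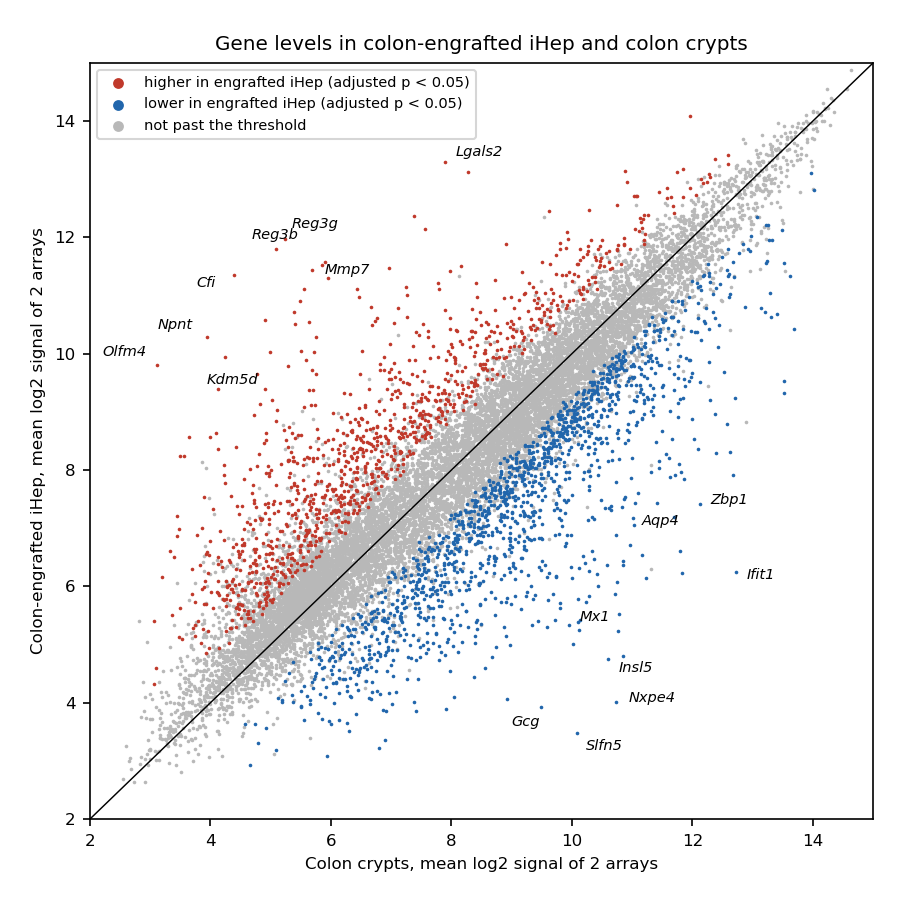
Mean log2 signal of 15262 genes in colon-engrafted iHep (2 arrays, vertical axis) and in colon crypts (2 arrays, horizontal axis), with the line of equal levels. Red points mark the 1083 genes higher and blue points the 1474 genes lower in engrafted iHep at an adjusted p under 0.05. Reg3g, Cfi and Olfm4 lie far above the line and Insl5, Gcg and Ifit1 far below it.

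The 2 engrafted arrays were less alike than the 2 colon arrays. Pearson's r over 18193 genes was 0.932 between the engrafted arrays and 0.989 between the colon arrays. It was 0.926 and 0.927 between engrafted replicate 1 and the colon arrays, 0.9 between engrafted replicate 2 and either colon array, 0.8 to 0.832 between engrafted and cultured iHep and 0.633 to 0.64 between engrafted iHep and adult liver. Between replicates, 694 of the 15262 genes differed by more than 2 (log2) in engrafted iHep, 421 of them higher in replicate 2, against 9 in colon. The 3′ minus 5′ signal of Gapdh, a measure of RNA integrity, was 1.41 and 1.38 in engrafted iHep and 0.79 and 0.86 in colon, and that of Actb was −0.28 and −0.13 against −0.15 and −0.23. That of Tfrc was 0.16 and 0.03 in engrafted iHep and −1.06 and −0.84 in colon. Spike-in signals of dap, lys and phe were 3.56 to 4.76 in engrafted iHep, 2.78 to 4.13 in colon and 7.42 to 10.99 on the other 7 arrays, which bears on levels set beside the cultured lines and livers. The part of these differences in any result was not tested.

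The labels of the engrafted arrays were set against sex-linked genes and cell type markers. Xist, the RNA of the inactive X chromosome, had 10.89 and 10.24 in engrafted iHep, against 12.16 and 12.25 in colon, and 12.52 to 12.73 in the 3 cultured iHep lines. Eif2s3y, a gene of the Y chromosome, had 9.33 and 9.27 in engrafted iHep, against 6.25 and 6.36 in colon and 3.48 to 3.81 in cultured iHep. Kdm5d, also on the Y chromosome, had 9.14 and 9.67 in engrafted iHep, against 4.90 and 4.90 in colon and 3.94 to 5.03 in cultured iHep. Both engrafted arrays thus held Xist together with signal of these Eif2s3y and Kdm5d probe sets, whereas in the 3 cultured iHep lines both were under the 40th percentile of their arrays. The 4 probe sets of Uty, also on the Y chromosome, read 3.30 to 5.35 in engrafted iHep and 2.67 to 3.81 in colon, all under the 40th percentile, and a second Eif2s3y probe set read 6.17 and 3.26 in engrafted iHep, against 3.57 and 3.49 in colon. The log2 fold changes were −1.64 ± 0.24 for Xist (SE, limma adjusted p = 0.00257), 2.99 ± 0.27 for Eif2s3y (adjusted p = 0.000204) and 4.50 ± 0.37 for Kdm5d (adjusted p = 0.000136). In fetal liver, the first probe sets read 9.38 and 10.15 for Eif2s3y but 4.33 and 4.82 for Kdm5d. A Uty probe set at 4.84 and 4.30 in engrafted iHep read 6.66 and 6.49 in fetal liver. Another Kdm5d probe set read 5.87 and 6.21 in engrafted iHep, 3.37 and 3.14 in colon and 6.77 and 6.68 in fetal liver. The probe sets thus did not move together across the arrays. The labels give no sex for the embryos or the mice, and the iHep line that was transplanted is not named. The source of the signal of these Y-linked probe sets was not tested.

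Intestinal regulators were called about as often as genes at large, of which 16.8% passed the test. Epcam, the pan-epithelial adhesion molecule, had 13.81 and 13.65 in engrafted iHep, against 13.61 and 13.67 in colon and 6.23 to 9.27 in cultured iHep. Cdh17, an intestinal cadherin, had 11.68 and 11.35 in engrafted iHep, against 11.77 and 11.70 in colon, with a 95% interval inside plus or minus 1. Both were picked out after their values were seen, and both were far above the cultured lines. Epcam overlapped between the groups, with a log2 fold change of 0.09 and a 95% interval of −1.69 to 1.87. Of 25 intestinal regulators tested, 3 rose and 1 fell, against 7.1% and 9.66% of all genes. The other 21 did not pass the test, and the median log2 fold change was −0.46. With colon replicate 1 or 2 left out, 1 rose and 0 fell, while 4 and 2 fell without engrafted replicate 1 and 2. An unadjusted limma p under 0.05 was found for 12 of the 25, against 4880 of the 15262 genes tested.

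Cdx2, the master regulator of intestine, had 11.10 and 11.05 in engrafted iHep, against 11.70 and 11.63 in colon and 8.97 to 10.33 in cultured iHep. Its groups did not overlap, but the difference of −0.59 ± 0.42 (log2 fold change ± SE, limma adjusted p = 0.372) did not pass the test. Cdx1, its close relative, had 10.01 and 9.56 in engrafted iHep, against 11.08 and 11 in colon, and 4.40 to 4.66 in cultured iHep. It fell by 1.26 ± 0.25 (SE, limma adjusted p = 0.00999), a call that ended without colon replicate 1 or 2 (−1.48 to −1.03 over the fits with 1 array left out). Hnf4a had 12.18 and 12.09 in engrafted iHep, against 12.69 and 12.70 in colon, a log2 fold change of −0.56 ± 0.85 (adjusted p = 0.69). This probe set read 7.67 to 10.78 in cultured iHep. Another 3 Hnf4a probe sets read between 9.59 and 10.76 in engrafted iHep and between 10.14 and 11.19 in colon, with 3.92 to 9.43 in cultured iHep, so the level in the cultured lines differed between probe sets. Foxa1 had 9.26 and 8.38 in engrafted iHep, against 10.34 and 10.13 in colon, a log2 fold change of −1.41 ± 0.60 (adjusted p = 0.139), and stood at 4.14 to 4.52 in the cultured iHep lines. Whether any Foxa1 or Hnf4a RNA came from the viruses cannot be read from these probe sets. Ehf, Elf3, Klf5 and Isx, further factors of gut epithelium, were between 8.97 and 13.14 in engrafted iHep and between 9.17 and 13.42 in colon, and none of the 4 passed the test.

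Of the posterior Hox genes, which mark position along the gut, 0 of 5 passed the test by limma at an adjusted p under 0.05, and 3 had an unadjusted p under 0.05. Hoxa10 had 9.50 and 9.46 in engrafted iHep, against 9.53 and 9.72 in colon, with its 95% interval inside plus or minus 1. Hoxb13, a factor of the distal colon, had 10.75 and 8.66 in engrafted iHep, against 11.91 and 11.76 in colon, and did not pass the test (log2 fold change −2.13 ± 0.68, SE, limma adjusted p = 0.0605). Hoxd13 had 8.29 and 6.14 in engrafted iHep, against 8.82 and 8.75 in colon (adjusted p = 0.074), and was low in engrafted replicate 2. Of 22 liver regulators tested, 2 rose, 3 fell and 17 did not pass, with a median of −0.06, and 1 rose and 0 fell without colon replicate 1 or 2. Gata4, a factor of the proximal intestine, rose to 7.30 and 8.61 in engrafted iHep, against 5.32 and 5.31 in colon and 5.61 to 6.34 in cultured iHep (log2 fold change 2.64 ± 0.39, adjusted p = 0.00242). The 2 liver regulators that rose and the 3 that fell stand beside 7.1% and 9.66% of all genes. The other called members were Onecut2, which rose by 1.20, and the nuclear receptors Nr5a2, Nr1i2 and Nr1h4, which fell by 1.67, 1.38 and 1.07. All 4 calls ended without colon replicate 1 or 2, those of Onecut2 and Nr1i2 also without engrafted replicate 1, and that of Nr1h4 also without engrafted replicate 2.

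Hepatocyte genes were mostly low in both groups. Alb, the major plasma protein of hepatocytes, had 6.26 and 6.24 in engrafted iHep, against 7.29 and 6.77 in colon, 5.69, 9.90 and 11.59 in the 3 cultured iHep lines and 14.99 in the first adult liver. Of 26 plasma protein genes tested, 2 rose and 2 fell (1 and 0 without colon replicate 1 or 2, 3 and 3 without engrafted replicate 1), and the mean level of the list was 6.43 and 6.35 in engrafted iHep, against 6.25 and 6.17 in colon, 7.49 to 8.73 in cultured iHep and 13.88 to 13.95 in adult liver. Apoa1, the apolipoprotein of high-density lipoprotein, was the clearest exception. It had 10.48 and 9.61 in engrafted iHep, against 6.35 and 6.68 in colon and 14.89 to 14.97 in cultured iHep. It rose by 3.53 ± 0.31 (SE, limma adjusted p = 0.000181), so that its level lay between those of colon and of the cultured lines. Serpina1b, an antitrypsin, had 6.22 and 8.53 in engrafted iHep, against 4.12 and 4.94 in colon, and rose by 2.84 ± 0.64 (adjusted p = 0.0163; not called without colon replicate 1 or 2, 1.69 to 3.99), with 12.87 to 13.88 in cultured iHep. The members that fell were the retinol carrier Rbp4 (−2.27) and Apoa2 (−1.19). Both calls ended without colon replicate 1 or 2, and that of Apoa2 also without engrafted replicate 2. The counts of the plasma protein list and of the next list stand beside 7.1% higher and 9.66% lower of all genes. Of 26 hepatocyte metabolism genes 0 rose and 2 fell, at a median of 0.10. The 2 were Pck1, the gluconeogenic carboxykinase, and Hpd, an enzyme of tyrosine breakdown, whose call ended without engrafted replicate 1 or either colon array. Pck1 had 8.80 and 7.54 in engrafted iHep, against 10.56 and 10.26 in colon (log2 fold change −2.24 ± 0.36, adjusted p = 0.00356), while another probe set of Pck1 moved the other way, by 2.21.

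**Figure D2:**
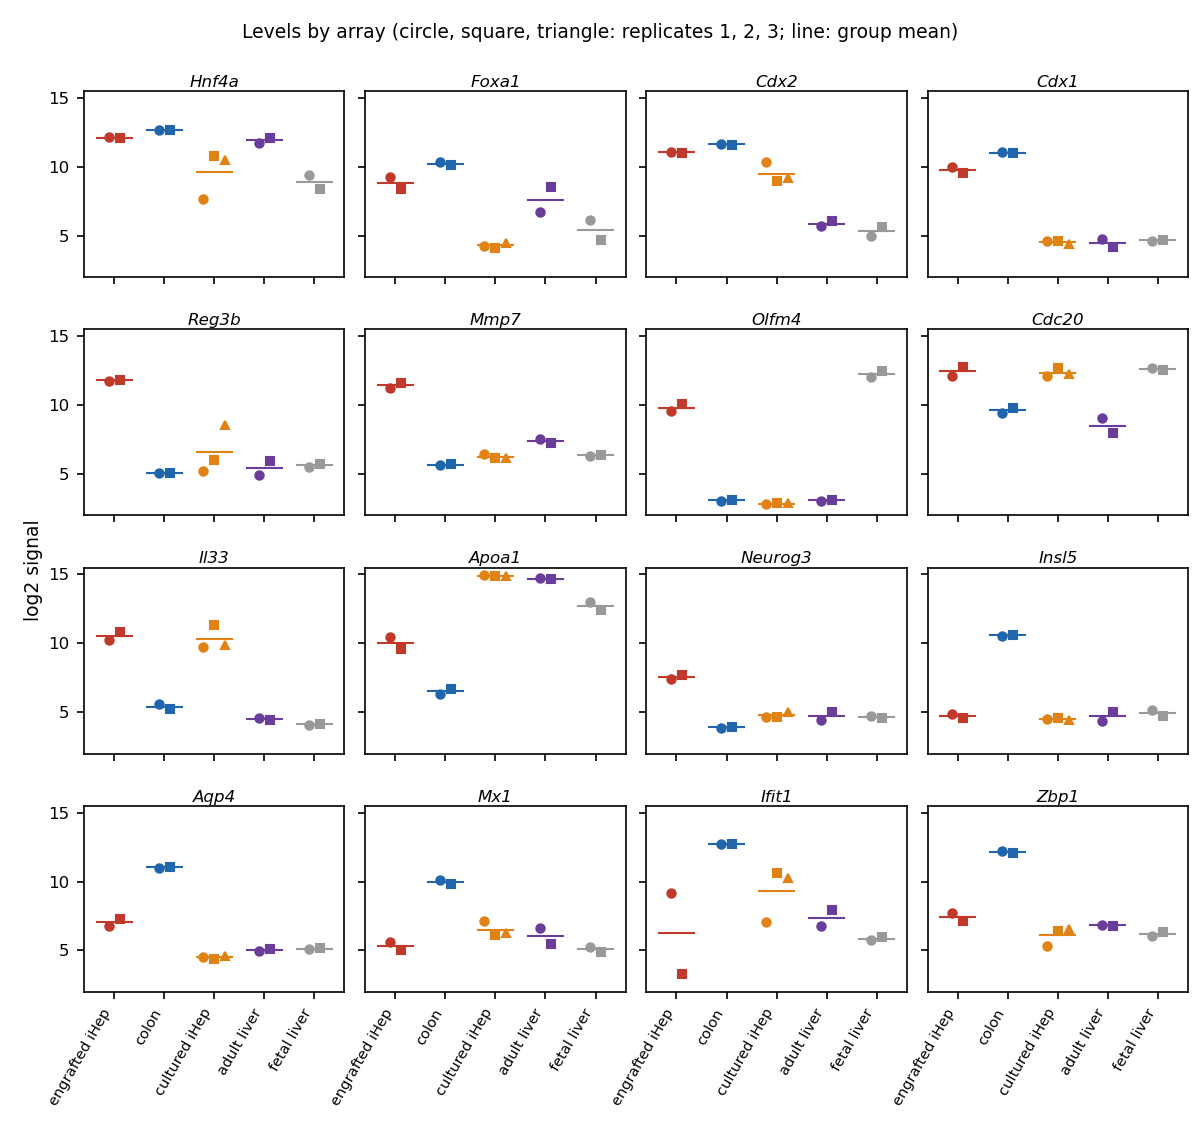
Log2 signal of 16 genes by array, with engrafted iHep left of colon, then cultured iHep, adult liver and fetal liver; symbols are replicates and lines are group means. Reg3b, Mmp7, Olfm4, Il33 and Neurog3 are high in both engrafted arrays and low in both colon arrays, Insl5, Aqp4, Mx1 and Zbp1 are the reverse, and the 2 engrafted arrays lie far apart for Ifit1.

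Absorptive colonocyte genes were often lower in engrafted iHep. Of 42 tested, 16 fell and 1 rose, against 9.66% and 7.1% of all genes, and 25 did not pass. The median log2 fold change was −0.97. Slc5a8, a sodium-coupled transporter of butyrate and lactate, had 8.15 and 5.29 in engrafted iHep, against 10.85 and 11.09 in colon. Aqp4, a water channel, had 6.81 and 7.31 in engrafted iHep, against 10.99 and 11.08 in colon. Slc51b, a subunit of the basolateral bile acid exporter, had 7.54 and 7.18 in engrafted iHep, against 11 and 10.69 in colon. In each of the 3 genes both engrafted arrays were well below both colon arrays, and the log2 fold changes were −4.25 ± 0.69, −3.97 ± 0.23 and −3.49 ± 0.25 (SE, limma adjusted p = 0.00371, 1.66e-05 and 5.69e-05). Tmigd1 was also among the lowest, at −3.91, but was not called without colon replicate 2. The sodium-proton exchanger Slc9a3 (−3.21), the carbonic anhydrase Car1 (−2.71) and the chloride exchanger Slc26a3 (−1.26) also fell, and these 3 were picked out after their values were seen. The call of Slc26a3 ended in 2 of the 4 fits with 1 array left out. Car4, a carbonic anhydrase of the surface epithelium, had 11.67 and 11.58 in engrafted iHep, against 11.98 and 11.83 in colon, with a 95% interval inside plus or minus 1. Krt20 had 11.56 and 9.25 in engrafted iHep, against 12.69 and 12.55 in colon, and did not pass the test (adjusted p = 0.0682). The count of lower members was 10 without engrafted replicate 2, 20 without engrafted replicate 1, and 8 and 6 without colon replicate 1 and 2. In RNA of mixed cells, fewer cells of a type and less RNA per cell cannot be told apart.

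Goblet cell genes were mostly not called, in a comparison where 16.8% of all genes were. Of 24 tested, 1 rose, 1 fell and 22 did not pass, at a median of −0.06. Without engrafted replicate 2 the number that fell was 4, and without colon replicate 1 or 2 none rose and 0 and 1 fell. Of the 24, 9 had a 95% interval inside plus or minus 1, against 33.8% of all genes tested. Muc2, the gel-forming mucin, had 12.41 and 12.92 in engrafted iHep, against 12.82 and 12.82 in colon, and 5.69 to 5.79 in cultured iHep. Zg16, a lectin of the mucus layer, had 14.02 and 14 in engrafted iHep, against 13.86 and 13.90 in colon. Spink4, a secreted inhibitor of goblet cells, had 14.27 and 14.04 in engrafted iHep, against 14.36 and 14.36 in colon. These 3 were picked out after their values were seen, and their log2 fold changes were −0.15, 0.12 and −0.20, each with an interval inside plus or minus 1. Of the 24 genes, 12 had a log2 fold change below 0 and 12 above it. The uncalled members with the largest differences were Atoh1 and Ccl6. Atoh1 had 6.50 and 8.56 in engrafted iHep, against 9.03 and 8.98 in colon (−1.48 ± 0.52, SE, limma adjusted p = 0.0818). Ccl6 read −1.37 ± 0.54 (adjusted p = 0.116), and −0.25 in another probe set. The member that fell was Retnlb, an antibacterial goblet cell peptide, at 4.53 and 6.16 in engrafted iHep, against 7.88 and 7.51 in colon (log2 fold change −2.35 ± 0.43, SE, limma adjusted p = 0.00705; not called without colon replicate 1). The called rise of Klk1, by 1.01, was opposed by 2 other probe sets at higher signal, which read −0.89 and −0.86, and ended without colon replicate 1 or 2, so its direction was not settled.

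Enteroendocrine genes moved in both directions. Of 22 tested, 7 rose and 4 fell, against 7.1% and 9.66% of all genes. Without colon replicate 1 and 2 the number that rose was 3 and 2, and without engrafted replicate 1 it was 11, with 7 that fell. The peptides of colonic L cells fell. Insl5 had 4.91 and 4.60 in engrafted iHep, against 10.56 and 10.64 in colon, and Gcg, the precursor of glucagon-like peptides, had 4.14 and 3.73 in engrafted iHep, against 9.52 and 9.44 in colon. Both engrafted arrays were under the 40th percentile for both genes, so the folds are limited by background; the log2 fold changes were −5.85 ± 0.27 and −5.55 ± 0.30 (SE, limma adjusted p = 3.64e-06 and 1.1e-05). Pyy, another L cell peptide, had 6.87 and 9.22 in engrafted iHep, against 11.56 and 11.34 in colon, and fell by 3.40 ± 0.59 (adjusted p = 0.00518). Neurog3, the factor that starts the endocrine lineage, had 7.39 and 7.70 in engrafted iHep, against 3.87 and 3.93 in colon and 4.64 to 4.99 in cultured iHep. It rose by 3.64 ± 0.25 (adjusted p = 5.03e-05), and its downstream factor Neurod1 rose by 1.30 ± 0.26 (adjusted p = 0.0102; not called without colon replicate 1 or 2, 1.17 to 1.44). Cpe, a peptide-processing enzyme, had 10.18 and 10.86 in engrafted iHep, against 7.78 and 7.28 in colon and 12.77 to 13.51 in cultured iHep, and rose by 2.99 (picked out after its values were seen). Of 12 tuft cell genes tested, 0 passed the test by limma at an adjusted p under 0.05, 1 had an unadjusted p under 0.05, and 1 passed without engrafted replicate 2.

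Some stem cell genes and many cell cycle genes were higher in engrafted iHep, where 7.1% of all genes were higher and 9.66% lower. Olfm4, a marker of stem cells in mouse small intestine, had 9.56 and 10.05 in engrafted iHep, against 3.08 and 3.14 in colon and 2.84 to 2.88 in cultured iHep. Fetal liver read higher still, at 12.06 and 12.48, so high Olfm4 was not particular to gut cells on these arrays. Both colon arrays were at background, and the log2 fold change was 6.69 ± 0.24 (SE, limma adjusted p = 1.93e-06). Of 23 crypt stem cell and Wnt target genes tested, 6 rose and 1 fell, at a median of 0.71, while with colon replicate 1 or 2 left out 1 rose and 0 fell. Lgr5, a marker of crypt stem cells, had 7.78 and 9.06 in engrafted iHep, against 6.98 and 5.54 in colon, and did not pass the test (log2 fold change 2.16 ± 0.68, adjusted p = 0.0583). Cd44 had 11.35 and 11.67 in engrafted iHep, against 8.09 and 8.23 in colon, and was as high in cultured iHep, at 11.66 to 12.17. It rose by 3.36, Smoc2 by 2.79 and Ephb3 by 1.07, and the calls of these 3 ended without colon replicate 1 or 2, that of Smoc2 also without engrafted replicate 2.

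Of 30 cell cycle genes tested, 24 rose and 0 fell, against 7.1% and 9.66% of all genes. The median log2 fold change was 1.91, and the called changes ran from 1.31 to 2.83. Cdc20, an activator of the anaphase-promoting complex, had 12.13 and 12.77 in engrafted iHep, against 9.44 and 9.81 in colon, and rose by 2.83 ± 0.38 (SE, limma adjusted p = 0.00162). Bub1, a spindle checkpoint kinase, had 8.15 and 8.30 in engrafted iHep, against 5.97 and 5.26 in colon, and rose by 2.61. Ccnb2, a mitotic cyclin, had 10.18 and 9.62 in engrafted iHep, against 7.67 and 7.14 in colon, and rose by 2.49. Engrafted levels were above colon levels in both arrays for each of the 3. Cdc6, which loads the replicative helicase, rose by 2.77, a call that ended without colon replicate 1. The mean level of the list was 9.90 and 10.43 in engrafted iHep, against 8.39 and 8.33 in colon and 10.39 to 11.15 in cultured iHep. The count that rose was 19 and 26 without engrafted replicate 2 and 1, and 13 and 11 without colon replicate 1 and 2.

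Antimicrobial genes gave some of the highest fold changes of the comparison. Reg3b had 11.77 and 11.83 in engrafted iHep, against 5.08 and 5.09 in colon. Reg3g had 12.49 and 11.48 in engrafted iHep, against 4.91 and 5.58 in colon. These 2 secreted C-type lectins, which act against bacteria at the mucosa, were low in the first cultured iHep line (5.21 and 4.64) and higher in the third (8.57 and 9.31). Mmp7, the metalloproteinase that activates Paneth cell defensins in mice, had 11.25 and 11.62 in engrafted iHep, against 5.64 and 5.73 in colon and 6.16 to 6.45 in cultured iHep. The log2 fold changes were 6.72 ± 0.85 for Reg3b, 6.74 ± 1.15 for Reg3g and 5.75 ± 0.23 for Mmp7 (SE, limma adjusted p = 0.00118, 0.00481 and 2.1e-06). Ang4, a ribonuclease of mouse Paneth and goblet cells, had 10.93 and 10.51 in engrafted iHep, against 5.26 and 5.49 in colon, and rose by 5.34 (picked out after its values were seen). Of 18 genes of the antimicrobial list tested, 6 rose and 4 fell, against 7.1% and 9.66% of all genes. The 4 that fell were S100a8, S100a9, Saa3 and Retnlb. Without colon replicate 1 and 2 the number that fell was 1 and 2. Lyz1, the Paneth cell lysozyme, had 4.87 in engrafted replicate 1 and 12.09 in replicate 2, against 9.90 and 10.32 in colon. The 2 engrafted arrays thus lay on either side of colon and no direction was called (log2 fold change −1.63 ± 1.70, and 1.98 without engrafted replicate 1). Lyz1 also read 13.07 and 11.65 in adult liver and 13.61 and 13.89 in fetal liver, so its signal does not by itself mark Paneth cells.

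Other genes with the highest fold changes were not of 1 kind. Cfi, a protease that inactivates complement and is made mainly by liver, had 11.31 and 11.42 in engrafted iHep, against 4.26 and 4.51 in colon, 5.80 to 6.33 in cultured iHep and 14.11 to 14.38 in adult liver. Its log2 fold change of 6.98 ± 0.29 was the highest of the genes named (SE, limma adjusted p = 2.24e-06). Both colon arrays were under the 40th percentile, as they were for Reg3b and Reg3g, so that these folds are limited by background. Lgals2, a galectin of the gut, had 13.23 and 13.36 in engrafted iHep, against 7.91 and 7.88 in colon and 6.78 to 7.09 in cultured iHep, and rose by 5.40 ± 0.20 (adjusted p = 1.93e-06). Prap1 (4.58) and Fbln1 (3.44), a matrix fibulin, likewise rose above both colon and cultured iHep. A second set was high in engrafted and cultured iHep alike. Npnt, an integrin ligand of the matrix, had 10.59 and 9.97 in engrafted iHep, against 4.33 and 3.57 in colon and 10.64 to 11.67 in cultured iHep (log2 fold change 6.33). Psrc1, a spindle protein, had 10.23 and 10.92 in engrafted iHep, against 5.31 and 4.51 in colon and 11.88 to 12.13 in cultured iHep (5.67). Igfbp4 (4.99), a binder of insulin-like growth factors, and Lgals1 (4.86), a galectin of mesenchyme, were likewise high in both. Gkn3, a gastrokine of the stomach, had 11.40 and 10.82 in engrafted iHep, against 5.35 and 5.76 in colon and 6.53 to 6.91 in cultured iHep (5.56). Tubb2b rose by 3.45, a call that ended without colon replicate 2.

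Genes of fetal-like and injured epithelium rose in part, where 7.1% of all genes were higher and 9.66% lower. Of 23 tested, 6 rose and 1 fell, at a median of 0.28, and 4 and 3 rose without colon replicate 1 and 2. Il33, an alarmin cytokine, had 10.24 and 10.79 in engrafted iHep, against 5.62 and 5.21 in colon and 9.76 to 11.32 in cultured iHep, and rose by 5.10 ± 0.47 (SE, limma adjusted p = 0.000218). Gja1, a gap junction protein, had 10.38 and 11.91 in engrafted iHep, against 6.87 and 7.61 in colon and 12.10 to 12.88 in cultured iHep, and rose by 3.90. Both genes were high in engrafted and in cultured iHep. Anxa10, an annexin of stomach and fetal-like gut, had 10.68 and 9.21 in engrafted iHep, against 4.07 and 4.41 in colon, and 10.03, 7.38 and 4.95 in the cultured lines. Its rise of 5.70 was not called without colon replicate 1 or 2 (4.97 to 6.44). Timp1 had 6.55 in engrafted replicate 1 and 11.72 in replicate 2, against 4.91 and 4.73 in colon, and its rise of 4.31 was not called without colon replicate 1 or 2 (1.72 to 6.90).

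The engrafted arrays differed from each other in genes of fibroblasts, myeloid cells and stomach. Of 29 fibroblast genes tested, 7 rose and 0 fell, against 7.1% and 9.66% of all genes, at a median of 2.32. The mean level of the list was 6.38 and 8.73 in engrafted iHep, against 5.58 and 5.59 in colon and 6.96 to 8.92 in cultured iHep. Fn1, fibronectin, had 10.35 and 12.69 in engrafted iHep, against 5.68 and 6.04 in colon and 12.56 to 13.11 in cultured iHep (log2 fold change 5.66 ± 0.61, SE, limma adjusted p = 0.000524). Vim, the mesenchymal intermediate filament, had 10.65 and 11.58 in engrafted iHep, against 7.99 and 7.62 in colon and 13.29 to 13.88 in cultured iHep (3.31 ± 0.54, adjusted p = 0.00381). Both genes were high in both engrafted arrays and in the cultured lines. The cadherin Cdh2 had 6.83 and 5.50 in engrafted iHep, against 3.13 and 3.26 in colon and 10.71 to 11.47 in cultured iHep, with replicate 2 under the 40th percentile of its array, and rose by 2.97. Col1a1 and Col3a1, the fibrillar collagens, were highest in engrafted replicate 2 and did not pass the test. Col1a1, picked out after its values were seen, had 7.82 and 12.82 in engrafted iHep, against 7.08 and 7.14 in colon and 5.56 to 7.85 in cultured iHep. The median of the list was 0.71 without engrafted replicate 2 and 3.31 without engrafted replicate 1, with 6 and 18 members that rose, and 4 rose without colon replicate 1. Zeb1 rose by 2.36, a call that ended without colon replicate 1 or 2.

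Myeloid markers were also split. Csf1r, the macrophage growth factor receptor, had 4.04 and 9.74 in engrafted iHep, against 9.07 and 9.19 in colon, and 6.06 to 6.35 in cultured iHep. Tyrobp, a myeloid signalling adaptor, had 5.45 and 9.54 in engrafted iHep, against 9.60 and 9.78 in colon. In engrafted replicate 1, 8 of the 24 macrophage and dendritic cell genes were above the 40th percentile of the array, and in replicate 2 the number was 19, against 22 and 23 in colon. By definition, 40% of the probe sets of an array lie under its 40th percentile. Of these 24 genes 6 fell and 0 rose, against 9.66% and 7.1% of all genes. The median log2 fold change was −0.81, with −1.70 without engrafted replicate 2 and 0.05 without engrafted replicate 1. In the gastric list the order was the reverse. Of 11 genes tested 2 rose and 2 fell, against 7.1% and 9.66% of all genes. The median log2 fold change was 2.00, with 3.93 without engrafted replicate 2 and 0.14 without engrafted replicate 1. Those that fell were Ctse and Capn8, the latter by 1.99 (−2.44 to −1.53 over the fits with 1 array left out). The Capn8 call ended without engrafted replicate 1 or either colon array. Gkn1, a gastrokine, had 11.32 and 4.73 in engrafted iHep, against 4.04 and 3.81 in colon, and Tff1, a trefoil peptide of gastric mucus, had 11.87 and 7.08 in engrafted iHep, against 7.01 or less in both colon arrays and 12.90 to 13.57 in cultured iHep. Neither passed the test. A probe set of Ctse, a gastric and epithelial protease, fell by 3.81, a call that ended without colon replicate 1 or 2. Another read 12.14 and 11.08 in engrafted iHep, against 10.08 and 9.86 in colon, a difference of 1.64, so its direction was not settled. What part cells other than iHep had in the engrafted arrays was not tested.

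**Figure D3:**
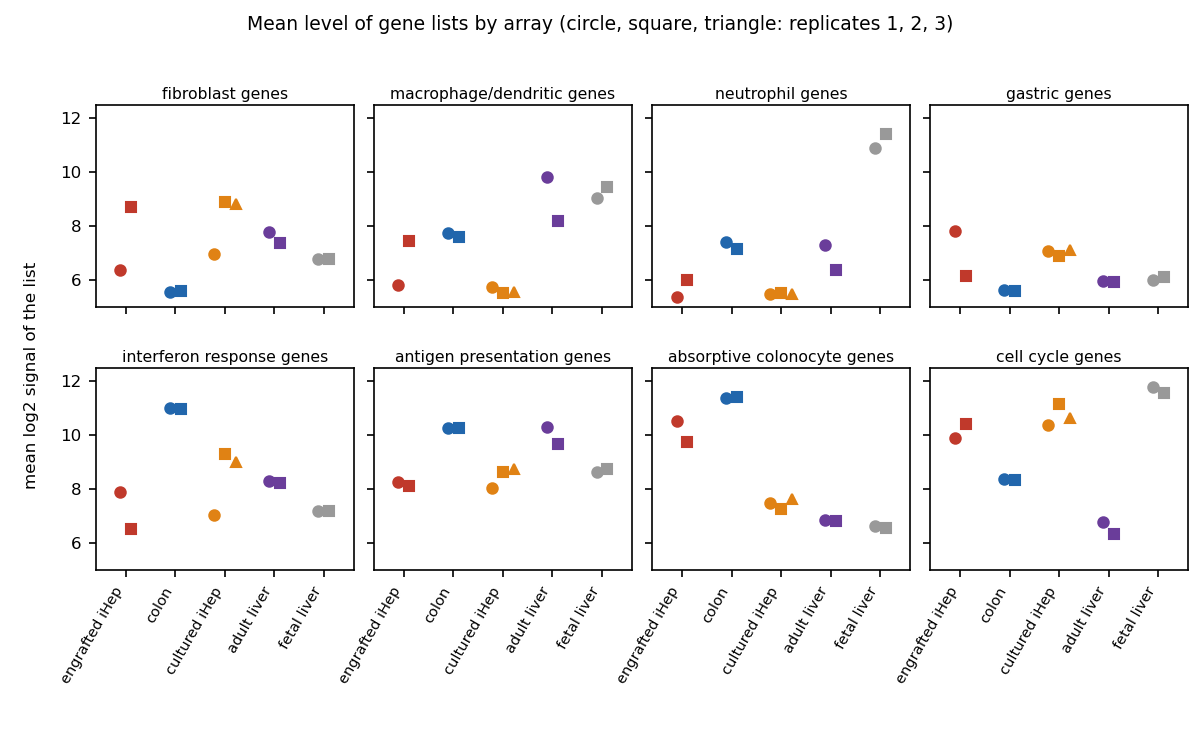
Mean log2 signal of 8 gene lists on each array, with engrafted iHep left of colon and then the cultured iHep, adult liver and fetal liver arrays; symbols are replicates. Fibroblast and macrophage genes are higher in engrafted replicate 2 than in replicate 1, gastric genes are higher in replicate 1, and interferon response and antigen presentation genes are lower in both engrafted arrays than in both colon arrays.

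Interferon-inducible genes were among the lowest fold changes of the comparison. Of 24 interferon response genes tested, 20 fell and 0 rose, at a median log2 fold change of −3.76, against 9.66% of all genes lower. The called changes ran from −6.49 to −2.04. The mean level of the list was 7.91 and 6.52 in engrafted iHep, against 11.02 and 10.99 in colon. It was 7.04 to 9.32 in cultured iHep and 7.18 to 8.30 in the livers, so colon was the highest of these groups. The promoters of the 3 called members with the largest changes among those that hold the letters of the interferon-stimulated response element are shown, because the list moved together. They are the 250 bases before the RefSeq start (GRCm38.p6), read 5′ to 3′ on the strand of the gene, with capitals for GAAANNGAAA on either strand, and cover chr19:34640639-34640888 (plus strand), chr5:120777660-120777909 (minus strand) and chr3:142559794-142560043 (plus strand).
Ifit1: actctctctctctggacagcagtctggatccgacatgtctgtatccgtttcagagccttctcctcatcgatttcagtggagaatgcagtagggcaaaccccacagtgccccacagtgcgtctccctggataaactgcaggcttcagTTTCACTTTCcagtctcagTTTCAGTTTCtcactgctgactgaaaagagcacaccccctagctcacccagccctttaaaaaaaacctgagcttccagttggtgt
Oas3: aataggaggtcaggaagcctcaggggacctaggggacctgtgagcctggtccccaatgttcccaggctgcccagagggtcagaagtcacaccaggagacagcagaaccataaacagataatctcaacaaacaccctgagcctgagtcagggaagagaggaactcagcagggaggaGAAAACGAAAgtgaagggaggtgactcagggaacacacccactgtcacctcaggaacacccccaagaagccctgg
Gbp3: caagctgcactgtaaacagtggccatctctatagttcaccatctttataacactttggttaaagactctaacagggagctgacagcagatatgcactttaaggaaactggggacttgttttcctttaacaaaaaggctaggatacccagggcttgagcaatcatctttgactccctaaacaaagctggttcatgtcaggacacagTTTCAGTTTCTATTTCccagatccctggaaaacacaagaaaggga
The 2 matches overlap in the Gbp3 promoter. Oas3, a synthetase that activates RNase L, had 7.14 and 5.95 in engrafted iHep, against 11.11 and 11.21 in colon, and fell by 4.62 ± 0.52 (SE, limma adjusted p = 0.000656). Gbp3, a guanylate-binding protein, had 7.09 and 4.39 in engrafted iHep, against 10.16 and 10.32 in colon, and fell by 4.50 ± 1.10 (adjusted p = 0.0223), a call that ended in 3 of the 4 fits with 1 array left out. The sequence table held 17 of the 24 members tested, and 10 of the 17 promoters had the letters, against 3.04% of 27025 promoters of the same length. Such a match is a description of the sequence and not a measured binding site.

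Mx1, a GTPase that blocks viral replication, had 5.64 and 5.04 in engrafted iHep, against 10.08 and 9.84 in colon and 6.13 to 7.15 in cultured iHep, and fell by 4.62 ± 0.45 (SE, limma adjusted p = 0.000303). Ifit2, which binds foreign RNA, had 7.95 and 5.27 in engrafted iHep, against 11.77 and 11.80 in colon, and fell by 5.18 ± 0.78 (adjusted p = 0.00267). Both were lower in both engrafted arrays than in either colon array. Ifit1 had 9.16 in engrafted replicate 1 and 3.32 in replicate 2, against 12.71 and 12.75 in colon, and fell by 6.49 ± 1.64 (adjusted p = 0.0255). Its call ended without engrafted replicate 2 or either colon array (−9.41 to −3.57 over the fits with 1 array left out). Iigp1 fell by 4.87, a call that ended without colon replicate 1 or 2, and Usp18 at −5.01 and Oasl2 at −4.06 did not pass the test. The cultured lines were not alike in these genes, since Ifit1 had 7.05, 10.62 and 10.25 in the 3 lines. Without engrafted replicate 2 the number that fell was 13, without engrafted replicate 1 it was 21, and with colon replicate 1 or 2 left out it was 8.

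Further genes known to respond to interferon were among the lowest outside the list. Zbp1, a sensor of Z-form nucleic acids, had 7.73 and 7.11 in engrafted iHep, against 12.19 and 12.07 in colon, and fell by 4.71 ± 0.39 (SE, limma adjusted p = 0.000124). Slfn5, a schlafen, had 3.92 and 3.05 in engrafted iHep, against 10.16 and 10.02 in colon, and fell by 6.61 ± 0.42 (adjusted p = 3.11e-05). Slfn2 (−4.51), Rnf213 (−3.78), Ifit1bl1 (−3.99) and Trim30d (−5.54) fell too. Trim30a (−6.05), Irgm2 (−5.27) and Ifi27l2a (−4.21) were not called without colon replicate 1 or 2, nor Trim30a and Ifi27l2a without engrafted replicate 2. Nxpe4, at 4.60 and 3.44 in engrafted iHep, against 10.66 and 10.81 in colon, had the largest fall of the genes named, by 6.71 ± 0.61 (adjusted p = 0.000211). Ceacam10, a carcinoembryonic antigen relative, fell by 4.03.

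Antigen presentation genes were lower as well. Of 16 tested, 12 fell and 0 rose, against 9.66% and 7.1% of all genes, at a median of −1.76. Nlrc5, the transactivator of MHC class I genes, had 5.89 and 4.71 in engrafted iHep, against 9.35 and 9.82 in colon, and fell by 4.29 ± 0.71 (SE, limma adjusted p = 0.0043). Psmb9, a subunit of the immunoproteasome, had 8.20 and 6.66 in engrafted iHep, against 11.36 and 11.46 in colon, and fell by 3.98 ± 0.53 (adjusted p = 0.00148). Cd74, the invariant chain of MHC class II, had 7.19 and 6.59 in engrafted iHep, against 10.03 and 9.94 in colon and 6.83 to 7.15 in cultured iHep. It fell by 3.09 ± 0.37 (adjusted p = 0.000958), and H2-Eb1 fell by 3.11 ± 0.44 (adjusted p = 0.0021). Psmb8 (−3.29) fell as well, but was not called with colon replicate 1 or 2 left out or without engrafted replicate 2. The MHC class II genes and Cd74 also belong to the macrophage and dendritic cell list. Cd74 and H2-Eb1 were low in both engrafted arrays. In replicate 2 Csf1r and Tyrobp were at or near the colon level, while Ctss of the same list was below it, at 10.27 against 13.12 and 13.16. The share of macrophages in these arrays was not tested. The count of antigen presentation genes that fell was 6 and 5 without colon replicate 1 and 2.

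Neutrophil genes were lower in part, where 9.66% of all genes were lower and 7.1% higher. Of 12 tested, 5 fell and 0 rose, at a median of −1.04, and 1 fell with colon replicate 1 or 2 left out. S100a8, a subunit of calprotectin, had 4.69 and 7.77 in engrafted iHep, against 11.86 and 11.80 in colon, and fell by 5.60 ± 0.82 (SE, limma adjusted p = 0.00238). Its partner S100a9 (−4.32), the cytokine Il1b (−2.94) and the receptor Csf3r (−2.23) were not called without colon replicate 1 or 2, nor S100a9 without engrafted replicate 1. Of 25 inflammatory mediators 3 rose and 6 fell, and 1 rose with colon replicate 1 or 2 left out, while 3 and 2 fell, and 6 rose without engrafted replicate 1. Ccl28, an epithelial chemokine of the colon, had 8.10 and 7.66 in engrafted iHep, against 11.75 and 11.51 in colon, and fell by 3.75 ± 0.33 (adjusted p = 0.000168). Ccl20 had 6.71 and 5.45 in engrafted iHep, against 8.15 and 8.27 in colon, and fell by 2.13. Lymphocyte genes gave 1 call in each direction among 18, against 7.1% higher and 9.66% lower of all genes. Their mean level was 5.40 and 5.38 in engrafted iHep and 5.34 and 5.45 in colon. The call that fell was Rag2, the gene deleted in the hosts, at 5.48 and 5.69 in engrafted iHep, against 6.61 and 7.12 in colon, a call that ended without colon replicate 2. Whether its probe set lies in the deleted part is not known here.

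**Figure D4:**
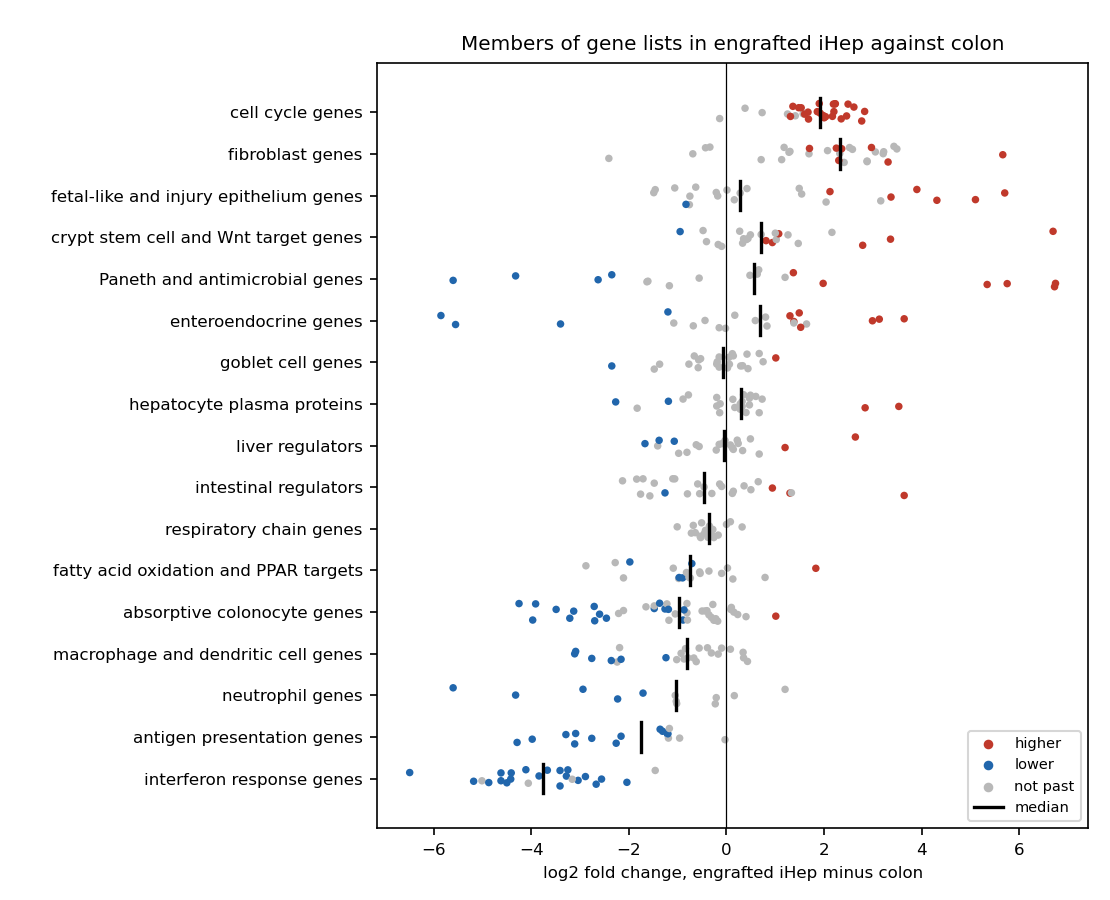
Log2 fold change (engrafted iHep minus colon) of each tested member of 17 gene lists; red and blue points passed the test, grey points did not, and black bars are medians. Cell cycle genes lie to the right with a median of 1.91, goblet cell genes and liver regulators are centred near 0, and interferon response genes lie to the left with a median of −3.76.

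No respiratory chain or sterol and fatty acid synthesis gene was called. Of 23 respiratory chain genes 0 passed the test by limma at an adjusted p under 0.05, against 16.8% of all genes, at a median of −0.35. An unadjusted p under 0.05 was found for 4, and 11 had a 95% interval inside plus or minus 1, against 33.8% of all genes tested. Of 18 cholesterol and fatty acid synthesis genes 0 passed, at a median of −0.14, and 1 had an unadjusted p under 0.05. Of 20 fatty acid oxidation genes and PPAR targets 4 fell and 1 rose, against 9.66% and 7.1% of all genes, and 1 fell without engrafted replicate 2 or either colon array. Pparg, the nuclear receptor of colonic lipid metabolism, had 9.18 and 9.24 in engrafted iHep, against 11.34 and 11.05 in colon, and fell by 1.98 ± 0.24 (SE, limma adjusted p = 0.000958). Of 29 detoxification genes 5 fell and 3 rose, 9 fell without engrafted replicate 1, and 3 fell without any other single array. Gstm3, a glutathione transferase, had 7.96 and 6.38 in engrafted iHep, against 10.89 and 11.12 in colon, and fell by 3.84 ± 0.56 (adjusted p = 0.00231). Cbr1, a carbonyl reductase, and Aldh1a1, a retinal dehydrogenase, fell by 2.85 and 2.35. The counts of this list and of the next list stand beside 9.66% lower and 7.1% higher of all genes. Among 24 claudin and junction genes 1 rose and 3 fell, and 0 passed without colon replicate 1 or 2. Cldn2, a pore-forming claudin of crypt base cells, had 12.76 and 12.69 in engrafted iHep, against 11.12 and 11.06 in colon, and rose by 1.63. Cldn8, a barrier claudin of the colon, had 8.65 and 6.00 in engrafted iHep, against 10.61 and 10.69 in colon, and fell by 3.33. Both claudin calls ended without colon replicate 1 or 2.

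The position of the engrafted cells between cultured iHep and colon was described over 1297 genes. These genes passed the test between cultured iHep and colon in a fit without the engrafted arrays and differed by at least 3 (log2). With 0 at the cultured iHep mean and 1 at the colon mean, engrafted replicate 1 had a median position of 0.79 (quartiles 0.59 and 0.94) and replicate 2 of 0.68 (quartiles 0.40 and 0.90). Over the 687 genes higher in colon the medians were 0.80 and 0.72, and over the 610 genes higher in cultured iHep they were 0.78 and 0.60. Replicate 2 was nearer to the cultured lines, with the lower median in both sets of genes. In replicate 1, 18.4% of the 1297 genes were nearer to cultured iHep than to colon, and in replicate 2 the share was 34.6%. Genes at or past the colon level, with a position over 1, numbered 214 in replicate 1 and 179 in replicate 2.

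**Figure D5:**
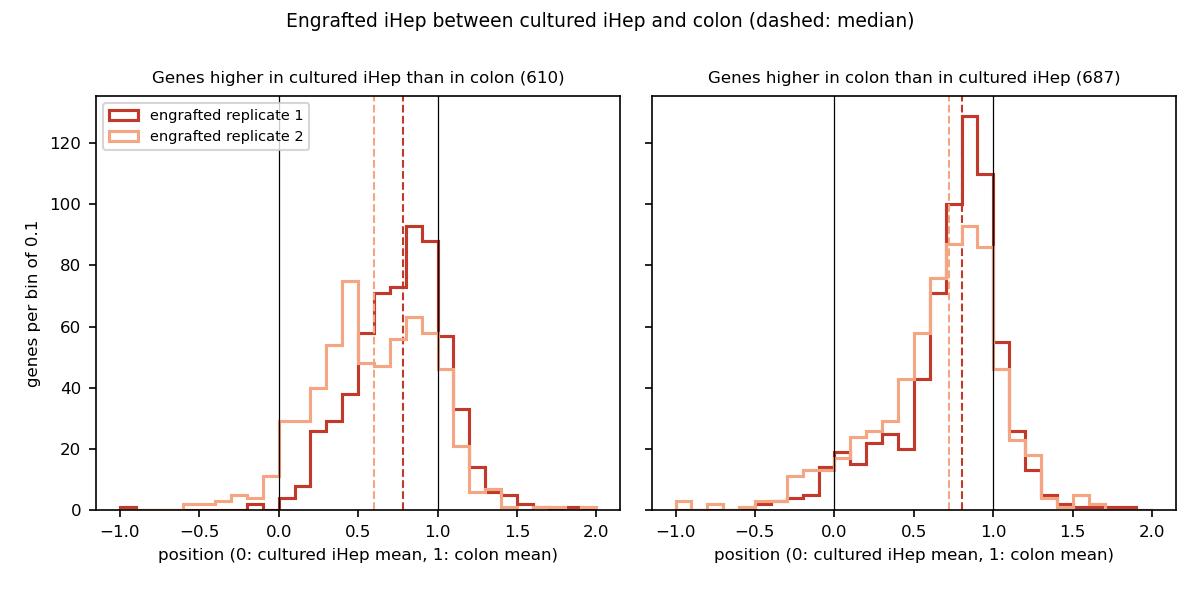
Position of each engrafted array between the cultured iHep mean (0) and the colon mean (1), for 610 genes higher in cultured iHep (left) and 687 genes higher in colon (right); the vertical axis counts genes per bin of 0.1, values beyond the axis are placed in the end bins, and dashed lines are medians. Medians are 0.78 and 0.60 on the left and 0.80 and 0.72 on the right for replicates 1 and 2.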

How the data were processed

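Expression was measured on Affymetrix mouse genome arrays, from 100 ng of total RNA per sample amplified with a Nugen kit per the labels' protocols. The deposited values were log2 signals made by RMA (background correction, quantile normalization and summary per probe set) per the submitters' processing notes, with its version not given in the sources used here. In all, the table held 45101 probe sets on 25 arrays. Of these, 34945 probe sets had 1 gene symbol, 932 several and 9160 were not listed. Signal over background and the number of arrays limit the precision.

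Each of 18193 genes was read from 1 probe set, that of highest average signal across the 25 arrays. A gene was tested when this probe set was above the 40th percentile of its array (5.60 to 5.67 in the 4 arrays compared) in at least 2 of 11 arrays, those of engrafted iHep, colon, cultured iHep, adult liver and fetal liver. limma 3.58.1 (lmFit and eBayes, 6 residual degrees of freedom) gave engrafted iHep minus colon, adjusted by Benjamini-Hochberg over 15262 genes at 0.05, with n = 2 arrays a group; the spread was therefore partly that of other tissues. An exact permutation test of 2 against 2 arrays cannot give a p below 0.333. On simulated data with 15262 genes and 5 runs, 8.2% of log2 changes of 1 and 63% of changes of 2 were recovered, with 4.3% false calls. The simulation changed few genes and gave every group the same spread per gene. In the data, 694 genes differed by more than 2 (log2) between the engrafted arrays and 9 between the colon arrays. The simulated rates therefore need not hold for this comparison.

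The members and gene lists were chosen with earlier results of these data known, and no test was run on a list. Genes were named by a rule: Foxa1, Hnf4a, Cdx1 and Cdx2, the 10 highest and 10 lowest called fold changes without overlap, the 6 highest and 6 lowest of those above the 60th percentile on all 4 arrays, up to 4 called and 2 uncalled members of each list, all regulators and the sex-linked genes. Clone-style symbols, such as Rik and Gm names, were passed over in the rankings by fold change. Epcam, Cdh17, Car1, Car4, Slc9a3, Slc26a3, Muc2, Zg16, Spink4, Cpe, Ang4, Saa3, Alb, Col1a1, Col3a1, Oas3 and Gbp3 were added after their values were seen. Alternatives were other filters, probe set rules, normalizations, variance models, array sets, a replicate block and each of the 4 arrays left out. Same-numbered replicates of engrafted iHep and colon had an r of −0.01 between their deviations from the group means. With 2 arrays a group, both numbers give the same r by construction. This value shows no pairing but cannot exclude it, since the colon arrays differed little (median difference 0.19). Figures were drawn with matplotlib 3.10.9 under Python 3.11.15.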

Additional observations from a re-analysis of the deposited data

How the results depend on the processing

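The number of genes called was 308 when a log2 change above 1 was required, 383 when only the 4 arrays were fitted and 5474 when all 25 arrays were, against 2557. With 1 of the 4 arrays left out it ran from 834 to 3765, and the number of genes with an interval inside plus or minus 1 ran from 2792 to 4315, against 5153. With these single arrays left out, the lists gave 8 to 21 lower interferon response genes, 5 to 12 lower antigen presentation genes, 6 to 20 lower colonocyte genes, 11 to 26 higher cell cycle genes, 4 to 18 higher fibroblast genes and 2 to 11 lower macrophage and dendritic cell genes; these list counts were added after seeing the data. A fit that lacks a colon array rests on 1 colon sample, assumed to vary like the other groups. With the replicate number as a block (replicate block) 1872 genes were called and 4490 had an interval inside plus or minus 1. Of 112 called named genes, 37 were called in every setting run, 59 in every fit with 1 array left out, and the replicate block ended 9 calls. Klk1 turned to −0.89 when probe sets shared between transcripts were left out, and Lyz1, uncalled at −1.63, ran from −5.24 without engrafted iHep replicate 2 to 1.98 without replicate 1. The cause was not tested. The median position between cultured iHep and colon stayed between 0.78 and 0.80 for engrafted replicate 1 and between 0.65 and 0.69 for replicate 2 in the settings run. Genes near background in a group have fold changes limited by that background.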
